A study of Homo sapiens with 34 samples.

Results

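Toll-like receptors are the sensors with which blood cells recognize microbial products. In all, 10 genes of this system were followed through the cytokine-free haematopoietic differentiation of H1, an established line of human embryonic stem cells: the receptors TLR1, TLR2, TLR3, TLR4, TLR5, TLR6, TLR7 and TLR8, the intracellular adaptor MYD88, and LY96, whose product MD-2 forms the ligand-binding complex with TLR4. They were taken by symbol, as 10 of the 20255 genes in the expression table, and all 10 were found once. RNA was sequenced from 34 samples in 12 populations, every one derived from H1. The populations were untreated undifferentiated cells (1 sample), EBs (embryoid bodies) at day 0 labelled with BMP4 and hVEGF, and unsorted differentiating cells at days 2 and 4 labelled with hVEGF. The remaining populations, all labelled with hVEGF, were cells sorted as CD43+ or CD43- at days 6, 9 and 12, and cells sorted as CD43-CD45- or CD43+/CD45+ at day 16. CD43, encoded by SPN, and CD45, encoded by PTPRC, are surface proteins of blood cells. The day 16 sorts are called day 16 CD43- and CD43+ cells here, and any step from day 12 to day 16 therefore also compares different sorts. Each population other than the undifferentiated cells had 3 samples, which the study describes as independent biological replicates. A single cell line was used, so the spread between replicates is that of repeated differentiations of H1.

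In general, TLR1, TLR2, TLR4, TLR5 and TLR6 act at the cell surface on bacterial lipids and proteins, with TLR2 pairing with TLR1 or TLR6, while TLR3, TLR7 and TLR8 bind RNA inside endosomes. Most of these receptors signal through MYD88 and the IRAK kinases to NF-κB and inflammatory cytokine genes. TLR3 signals through the adaptor TICAM1 instead. Monocytes, macrophages and neutrophils are known for a broad set of Toll-like receptors, and endothelial cells also carry some of them.

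To show the sequence context of members that behaved differently below, stretches before their RefSeq transcription starts (GRCh38.p14) are given. Of the members, 7 had their promoter read (TLR2, TLR3, TLR4, TLR5, TLR6, TLR8 and MYD88). The letters of 5 short motifs were searched on both strands from 250 bases before to 50 bases after the start. Among 35116 RefSeq promoters of the same length, the PU.1-type ETS letters GAGGAAG occurred in 13.6%, the C/EBP letters TTGCNNAA in 10.5% and the GATA letters AGATAA in 10.3%. An NF-κB motif occurred in 1.91% and an interferon-stimulated element in 3.57%. In the 7 member promoters there were 11 matches, none of which overlapped another. The windows of TLR2 and TLR5 held a match to none of the 5 motifs. The bases before the start are shown for TLR8, TLR6 and TLR3 up to the first annotated exon, and capitals mark matches. They are TLR8 (chrX:12906370-12906619, plus strand) and TLR6 (chr4:38856818-38857067, minus strand), which were high late in CD43+ cells, and TLR3 (chr4:186068906-186069151, plus strand), which was not.
TLR8: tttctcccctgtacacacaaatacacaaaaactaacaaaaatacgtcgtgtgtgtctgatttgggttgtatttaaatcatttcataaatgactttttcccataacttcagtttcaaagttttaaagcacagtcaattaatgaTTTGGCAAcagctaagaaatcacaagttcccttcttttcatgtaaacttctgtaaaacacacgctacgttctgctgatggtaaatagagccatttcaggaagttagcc
TLR6: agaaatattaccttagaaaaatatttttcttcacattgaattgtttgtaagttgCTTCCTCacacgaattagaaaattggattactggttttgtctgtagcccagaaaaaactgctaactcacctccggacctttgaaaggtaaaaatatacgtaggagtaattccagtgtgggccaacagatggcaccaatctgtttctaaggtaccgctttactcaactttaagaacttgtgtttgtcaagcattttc
TLR3: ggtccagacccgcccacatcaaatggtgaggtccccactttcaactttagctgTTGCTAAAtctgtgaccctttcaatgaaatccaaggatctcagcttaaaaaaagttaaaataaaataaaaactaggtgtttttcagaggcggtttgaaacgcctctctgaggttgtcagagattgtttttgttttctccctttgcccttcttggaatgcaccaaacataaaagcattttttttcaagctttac
TLR8 and TLR3 held a C/EBP-type match and TLR6 a match to GAGGAAG on the other strand, read as CTTCCTC. A further match in TLR3, to the interferon-stimulated element, ran across the start.

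The TLR4 promoter was unusual in its number of matches. It held 4 matches to GAGGAAG and 1 to AGATAA, and 7 of the 35116 promoters, TLR4 among them, held at least 4 matches to GAGGAAG. The 4 sites are shown with 10 bases on either side on the plus strand, at chr9:117704168-117704194, chr9:117704221-117704247, chr9:117704293-117704319 and chr9:117704353-117704379.
TLR4 site 1: agccaactagCTTCCTCttgctgtttc
TLR4 site 2: cttcttctaaCTTCCTCtcctgtgaca
TLR4 site 3: gccgctttcaCTTCCTCtcacccttta
TLR4 site 4: ggggcggctcGAGGAAGagaagacacc
MYD88, the adaptor, had 1 match to GAGGAAG and 1 to the interferon-stimulated element (chr3:38138590-38138619, plus strand). The window shown lies before the RefSeq start used and within the annotated MYD88 locus given below, which begins earlier, and TLR4 site 4 likewise lies within the TLR4 locus given below. In GENCODE v29 the TLR4 locus begins at 117704175, and the matches of sites 1 to 3 lie within it too.
MYD88 site 2: gcgcttctcgGAAAGCGAAAgccggcgggg
No member promoter had the NF-κB letters, which says only that they were not in these windows.

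Before the members were compared, the labels were checked against marker genes. The table holds tag counts normalized for GC content, and sorted by size its values were the same in every sample, with a total of 17856940, a median of 197 and 1292 genes listed at 0. They are therefore close to ranks, and the sequencing depth is unknown. The values are not scaled by gene length, so levels are compared between populations and not between genes. SPN followed the sort, with mean values of 7183, 9203, 6127 and 2668 in CD43+ cells of days 6, 9, 12 and 16, against 23.0 to 178 in CD43- cells. PTPRC was near 0 in day 6 CD43+ cells (3.0) and high later (693.7, 9581 and 12655). The summed value of 8 monocyte and macrophage markers (CD14, CSF1R, CD163, CD68, MRC1, ITGAM, C1QA and FCGR1A) was 856 to 1263 in day 6 CD43+ cells, with C1QA at 0, 3166 to 3713 on day 9, 24262 to 84447 on day 12 and 61145 to 71276 on day 16. For 8 neutrophil lineage markers (MPO, ELANE, AZU1, PRTN3, CSF3R, S100A8, S100A9 and CEACAM8) these sums were 352 to 542, with ELANE and S100A8 at 0, 23275 to 31530, 199371 to 227319 and 165374 to 228609. In every CD43+ sample of days 12 and 16, MPO alone was at 90700, the highest value of any gene, and so could not vary. In CD43- cells the monocyte and macrophage markers summed to 591 to 3495 on day 6, overlapping the CD43+ sums, and to 703 to 2079 on day 9. Single markers differed in direction on day 9, with MRC1 at 162.3 in CD43+ against 1190 in CD43- cells and CSF1R at 2591.3 against 28.7. On day 6 the sums of 5 mesenchymal markers overlapped between the sorts, at 56666 to 128770 in CD43+ and 88063 to 114299 in CD43- cells. Those of 5 endothelial markers also did, at 27924 to 37605 and 30263 to 91098. Sums of 4 erythroid markers (102950 to 111057 and 83 to 110) and 4 epithelial markers (3933 to 6202 and 63251 to 115680) did not overlap that day. In bulk RNA, fewer cells of a type and less RNA per cell cannot be told apart, and the part of these markers in the differences below was not tested.

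The first question was when the blood and non-blood populations came to differ in these genes. A gene was called where it differed by more than 4-fold with an adjusted p below 0.05 (limma on log2 of value + 1, adjusted over the 19788 genes tested). On day 6, 0 of 10 members were called between CD43+ and CD43- cells, against 12.5% of all genes tested, by limma. TLR4, TLR5 and MYD88, the 3 members at an unadjusted p below 0.05, passed the adjusted p-value and not the fold, and 50.3% of all genes passed it at any fold. On day 9, TLR1 and TLR6 were called higher in CD43+ cells, and 21.5% of all genes were called. On day 12, 8 members were called higher and 1, TLR3, lower, against 26.2% of all genes. On day 16 all 10 were called, 9 higher and TLR3 lower, against 25.8% of all genes. The median log2 fold change of the 10 members was 0.32, 1.27, 4.98 and 5.64 on the 4 days, beside 0.14, 0.24, 0.22 and 0.14 for all genes tested. The medians of days 6 and 9 include TLR8, and that of day 6 LY96, with CD43- cells listed at 0. All 10 members passed the filter on low values. TLR8 passed it through the CD43+ samples of days 12 and 16 alone, because no other sample reached 10. Its calls on those days, counted above, are thus drawn from the values that admitted it. Outside CD43+ cells, TLR1 reached 10 only in day 16 CD43- samples (14 and 10) and TLR7 only in a day 12 CD43- sample (22). That is fewer than the 3 samples the filter asks for, so the calls of TLR1 and TLR7 are likewise not independent of it.

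**Figure D1:**
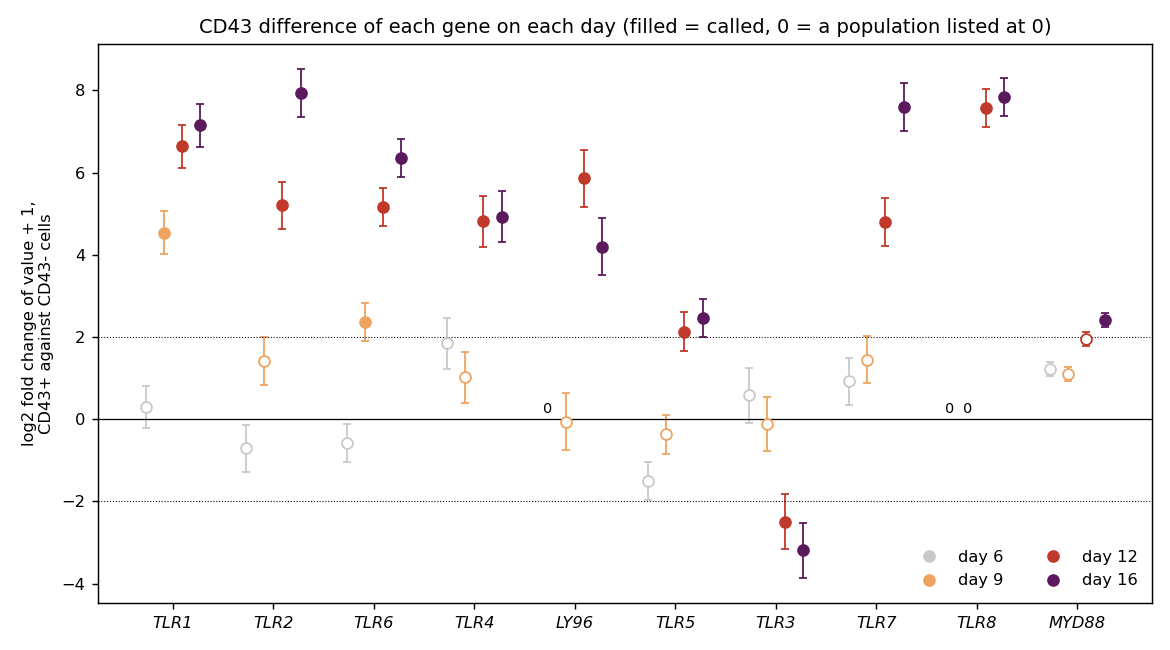
Log2 fold change of value + 1 between CD43+ and CD43- cells (y axis) for the 10 genes (x axis) on days 6, 9, 12 and 16, with the standard error of the limma fit as bars and 3 samples per population. Filled points were called, dotted lines mark a 4-fold change and a 0 replaces the point where a population was listed at 0; 8 genes rise above the upper line by day 12 and TLR3 lies below the lower line on days 12 and 16.

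TLR2 and its partners TLR1 and TLR6, which together sense bacterial lipoproteins, were the 3 members called higher within CD43+ cells on day 9 than on day 6. TLR1 (chromosome 4, 38790677 to 38856817, minus strand) had values of 4, 1 and 4 in the day 6 CD43+ samples, 52, 72 and 64 on day 9, 946, 357 and 312 on day 12 and 1364, 1500 and 2083 on day 16. None of these late samples overlapped the CD43- samples, which ranged from 1 to 14 over the 4 days. The log2 fold change against CD43- cells was 4.54 on day 9 (standard error 0.52, adjusted p = 2.13e-08, limma), 6.64 on day 12 and 7.15 on day 16. Without its CD43+ samples TLR1 would not have entered the test, so its p-values are not independent of the filter.

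TLR6 (chromosome 4, 38823715 to 38856817, minus strand) had 10, 10 and 8 in day 6 CD43+ cells, 51, 94 and 68 on day 9, 1027, 640 and 473 on day 12 and 896, 866 and 1156 on day 16. The CD43- samples lay between 6 and 38. Against CD43- cells TLR6 differed by 2.37 on the log2 scale on day 9 (standard error 0.46, adjusted p = 5.71e-05, limma), 5.16 on day 12 and 6.36 on day 16. At a pseudocount of 10 the day 9 difference was 1.80 and was no longer called. The annotated loci of TLR1 and TLR6 share 33103 bases on the same strand, of which 57 lie in exons of both genes in GENCODE v29, and both are close in sequence, so how reads were divided between them is uncertain.

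TLR2 (chromosome 4, 153701500 to 153705699, plus strand) was listed at low values from the start, 13 in the undifferentiated sample and 14 to 20 on days 0 to 4. In CD43+ cells it had 4, 4 and 3 on day 6, 25, 32 and 28 on day 9, 3016, 1607 and 1560 on day 12 and 6072, 4790 and 7780 on day 16. The CD43+ samples of day 6 lay below all day 4 samples, those of each later day above all of the day before. Against CD43- cells TLR2 differed by 1.42 on the log2 scale on day 9 (adjusted p = 0.0345, limma), under the 4-fold threshold, 5.20 on day 12 (standard error 0.58, adjusted p = 1.03e-08) and 7.93 on day 16 (adjusted p = 3.32e-12). From day 4 to day 6 CD43+ cells the log2 fold change was -1.94 (adjusted p = 0.00653), not past 4-fold. Without day 4 replicate 1 it was -2.07 and called. A replicate block within day 6, the one day on which replicate numbers were taken to pair the samples, gave -2.19. That value sets the fitted level of day 6 replicate 1 against day 4, so it does not measure what pairing does to this step.

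TLR4, the receptor for lipopolysaccharide, had a different course from the lipoprotein receptors. On chromosome 9 (117704332 to 117716871, plus strand), it was listed at 4 in undifferentiated cells, at 6, 11 and 5 on day 0 and at 0, 8 and 2 on day 2. On day 4 the values were 251, 436 and 331, all above every earlier sample. The log2 fold change from day 2 to day 4 was 6.79 (standard error 0.62, adjusted p = 1.51e-09, limma), and it was the one member called higher in this step, in which 9.50% of all genes were called. TLR6 (1.25, adjusted p = 0.0333) passed the adjusted p-value and not the fold. Over the same days the summed value of 5 endothelial markers (CDH5, KDR, TEK, PECAM1 and EMCN) went from 9592 to 10002 on day 2 to 31925 to 35682 on day 4, and that of 5 mesenchymal markers from 8540 to 11143 to 63607 to 78912. The monocyte and macrophage markers summed to 138 to 185 on day 4, with C1QA at 0, and the neutrophil markers to 73 to 97. Erythroid markers summed to 33 to 45 on day 2 and 963 to 1080 on day 4, and eosinophil and mast cell markers to 13 to 29 and 249 to 317. SPN and PTPRC together were at 14 to 32 and 152 to 196, and 4 epithelial markers at 37421 to 47696 and 73055 to 141033. The part of these cell types in the TLR4 rise was not tested.

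After day 4, TLR4 was present in both sorted populations. It had 278, 265 and 366 in day 6 CD43+ cells against 122, 106 and 43 in day 6 CD43- cells, groups that did not overlap and were 1.85 apart on the log2 scale (standard error 0.62, adjusted p = 0.0146, limma). That lay under the 4-fold threshold, and was called at 2.13 without day 6 CD43- replicate 1 and at 2.03 without replicate 2. In CD43- cells the change from day 4 to day 6 was -1.99 (adjusted p = 0.0104), also just under the threshold. It was called without day 4 replicate 1 (-2.19) and without day 6 CD43- replicate 1 (-2.27) or 2 (-2.17). On day 9 the values were 126, 144 and 140 in CD43+ and 68, 62 and 71 in CD43- cells (log2 fold change 1.02, adjusted p = 0.152). The CD43+ values were 3380, 1478 and 1686 on day 12 and 2068, 1584 and 3192 on day 16. CD43- cells had 22, 63 and 256 on day 12 and 66, 76 and 71 on day 16. TLR4 was called on both days, at 4.81 (adjusted p = 1.22e-07) and 4.93 (adjusted p = 8.65e-08). Within CD43+ cells it rose by a log2 fold change of 3.89 from day 9 to day 12, and the 0.10 from day 12 to day 16 did not pass the test (adjusted p = 0.920).

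LY96 (chromosome 8, 73991352 to 74029087, plus strand) encodes the co-receptor that TLR4 needs to bind lipopolysaccharide, and it appeared later than TLR4. It was listed at 0 in all samples of days 2 and 4 and in both populations of day 6, while TLR4 was first high on day 4. On day 9 the values were 6, 2 and 0 in CD43+ and 3, 2 and 1 in CD43- cells. It then stood at 230, 104 and 88 in day 12 CD43+ cells and at 176, 244 and 367 on day 16, while CD43- cells had 0, 0 and 10 on day 12 and 12, 13 and 13 on day 16. The log2 fold change between CD43+ and CD43- cells was 5.86 on day 12 (standard error 0.70, adjusted p = 3.64e-08, limma) and 4.20 on day 16 (adjusted p = 7.70e-06). The rise within CD43+ cells from day 9 to day 12 was 5.55 (adjusted p = 2.23e-07).

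TLR5, the flagellin receptor (chromosome 1, 223109406 to 223143282, minus strand), was listed in undifferentiated cells at 26 and on day 0 at 49, 65 and 50. It fell in the first CD43+ cells, to 10, 1 and 14 on day 6 against 38, 42 and 41 on day 4, a step of -2.58 on the log2 scale (standard error 0.47, adjusted p = 4.63e-05, limma). In this step 14.5% of all genes were called. Without day 6 CD43+ replicate 2 the change was -1.68 and was not called. The day 6 CD43- cells had 22, 17 and 17, above all CD43+ samples, and the difference of -1.50 passed the adjusted p-value alone (0.00923). It was -2.06 and called without day 6 CD43+ replicate 3.

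The direction of the TLR5 difference was the opposite on days 12 and 16. CD43+ cells had 208, 194 and 110 on day 12 and 554, 610 and 626 on day 16, and CD43- cells had 26, 52 and 37 and then 98, 140 and 91. The log2 fold changes were 2.13 (standard error 0.47, adjusted p = 0.000246, limma) and 2.46 (adjusted p = 4.47e-05). The day 12 difference was close to the threshold and was not called at 1.88 without CD43- replicate 1 or at 1.96 without CD43+ replicate 1, nor at 1.89 with a pseudocount of 10. Within CD43- cells, all 3 day 16 samples were above all 3 of day 12 for TLR5, at a log2 fold change of 1.52 (adjusted p = 0.00962) that was not past 4-fold.

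TLR7 and TLR8, neighbouring genes on chromosome X whose products bind single-stranded RNA in endosomes, were at low values in every sample before day 12. TLR8 (12906620 to 12923169, plus strand) was listed at 0 in all samples of days 2 and 4, of day 6 CD43- and of day 9 CD43- cells, and at 4, 4 and 2 on day 0. In CD43+ cells it had 1, 0 and 0 on day 6, 2, 2 and 3 on day 9, 596, 239 and 236 on day 12 and 1497, 1364 and 2124 on day 16. The rise was 6.62 on the log2 scale from day 9 to day 12 (standard error 0.46, adjusted p = 7.09e-12, limma). It was 2.33 from day 12 to day 16 (adjusted p = 0.000235), a step in which 9.05% of all genes were called and TLR8 was the one member among them. At a pseudocount of 0.1 this last rise had an adjusted p of 0.0555 and was not called. Against CD43- cells, at 0 to 4 on day 12 and 4 to 8 on day 16, TLR8 was called at 7.57 (adjusted p = 8.29e-14) and 7.84 (adjusted p = 4.28e-14). TLR8 entered the test only through the CD43+ samples of days 12 and 16, so these p-values are not independent of the filter.

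TLR7 (12867083 to 12890380, plus strand) had 10, 4 and 12 in CD43+ cells of day 6, 15, 14 and 14 on day 9, 706, 174 and 136 on day 12 and 324, 361 and 560 on day 16. The difference from CD43- cells was 1.45 on day 9 (adjusted p = 0.0309, limma), under 4-fold, then 4.79 on day 12 (standard error 0.58, adjusted p = 4.84e-08) and 7.60 on day 16 (adjusted p = 8.37e-12). CD43- cells had 4, 6 and 22 on day 12 and 0, 2 and 2 on day 16. Without its CD43+ samples TLR7 would not have entered the test, so its p-values are not independent of the filter. Day 12 CD43+ replicate 1, with the highest TLR7 value, also had the highest summed monocyte and macrophage markers of its group, 84447 against 29769 and 24262, and the lowest sum of 4 megakaryocyte markers, 7964 against 31316 and 20457. The same sample was the highest of its group for all 10 members.

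TLR3, the endosomal receptor for double-stranded RNA (chromosome 4, 186069152 to 186088069, plus strand), was the one member called lower in CD43+ cells on days 12 and 16. Its values were at most 31 in every sample. The highest was that of the undifferentiated sample, and day 0 had 19, 16 and 19. On day 4 it had fallen to 2, 0 and 0, against 10, 11 and 15 on day 2, and the step came to -3.15 on the log2 scale (standard error 0.66, adjusted p = 4e-04, limma). It then rose again to 8, 8 and 12 in day 6 CD43+ cells (2.82, adjusted p = 0.000785) and to 8, 4 and 6 in day 6 CD43- cells (2.24, adjusted p = 0.00704). Of all genes, 7.71% were called between day 4 and day 6 CD43- cells. The rise in CD43- cells was 1.97 and not called without day 4 replicate 2 or 3. With a pseudocount of 10 the fall to day 4 was -1.04 and the rises to day 6 were 0.86 in CD43+ and 0.58 in CD43- cells, none of them called.

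On day 9 both populations had TLR3 values of 6 to 13. On day 12 it was at 10, 4 and 0 in CD43+ against 24, 25 and 14 in CD43- cells, and on day 16 at 0, 0 and 6 against 20, 16 and 14. The log2 fold changes were -2.49 (standard error 0.66, adjusted p = 0.00157, limma) and -3.19 (adjusted p = 0.000119), and the groups did not overlap on either day. The day 12 difference was not called without CD43+ replicate 3 (-1.53), nor when only these populations were fitted (adjusted p = 0.0597). At a pseudocount of 10 it was -1.12 on day 12 and -1.18 on day 16, neither past 4-fold.

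MYD88 (chromosome 3, 38138478 to 38143022, plus strand), the adaptor shared by most of the receptors, was present in every sample. It had 534 in the undifferentiated sample, 478, 615 and 737 on day 0, 845, 838 and 965 on day 2 and 890, 846 and 757 on day 4. Its CD43+ values were 1112, 1056 and 858 on day 6, 1010, 878 and 882 on day 9, 1910, 1642 and 1413 on day 12 and 2378, 2314 and 3136 on day 16. In CD43- cells it stayed between 331 and 523 from day 6 to day 16, and no CD43+ sample overlapped these. The log2 fold change was 1.22 on day 6 (standard error 0.17, adjusted p = 9.62e-07, limma), and the later days had 1.11, 1.94 and 2.42 (adjusted p of the last 9.33e-13). Of these, the day 16 difference was past 4-fold. On day 12 it was 2.05 and called without CD43- replicate 1 or without CD43+ replicate 3. Between day 4 and day 6 CD43- cells MYD88 differed by -0.94 (adjusted p = 5.1e-05), under 4-fold, while in CD43+ cells the difference was 0.27 (adjusted p = 0.174).

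In the step from day 9 to day 12 within CD43+ cells, 8 of 10 members rose, against 15% of all genes called in either direction: TLR8 by a log2 fold change of 6.62, TLR2 by 6.07, LY96 by 5.55, TLR7 by 4.07, TLR4 by 3.89, TLR5 by 3.46, TLR6 by 3.28 and TLR1 by 2.91. The highest of their adjusted p-values was 3.25e-05, for TLR1. TLR8 entered the test only through the CD43+ samples of days 12 and 16, and TLR1 and TLR7 would not have entered it without CD43+ samples. MYD88 (0.83, adjusted p = 0.000129) passed the adjusted p-value and not the fold, and TLR3 was at -1.51 (adjusted p = 0.0524). In this step the summed value of 4 erythroid markers went from between 112330 and 188625 to between 5155 and 13398, and that of 6 eosinophil and mast cell markers from between 2196 and 5440 to between 27408 and 57889. Their part in the member changes, like that of the monocyte and neutrophil markers above, was not tested. The CD43 difference itself changed between days, by the interaction term, for 2 members in the step that ended on day 9, for 8 in that ending on day 12 and for 2 in that ending on day 16, against 7.39%, 9% and 5.03% of all genes. Between days 6 and 9, 3 members rose in CD43+ cells (TLR1 by 4.10, TLR6 by 2.76 and TLR2 by 2.65), against 7.53% of all genes called. TLR2 was then at 1.48 and not called with a pseudocount of 10. TLR8 (1.39, adjusted p = 0.0238) passed the adjusted p-value and not the fold in this step, and was called at a pseudocount of 0.1 (3.43).

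**Figure D2:**
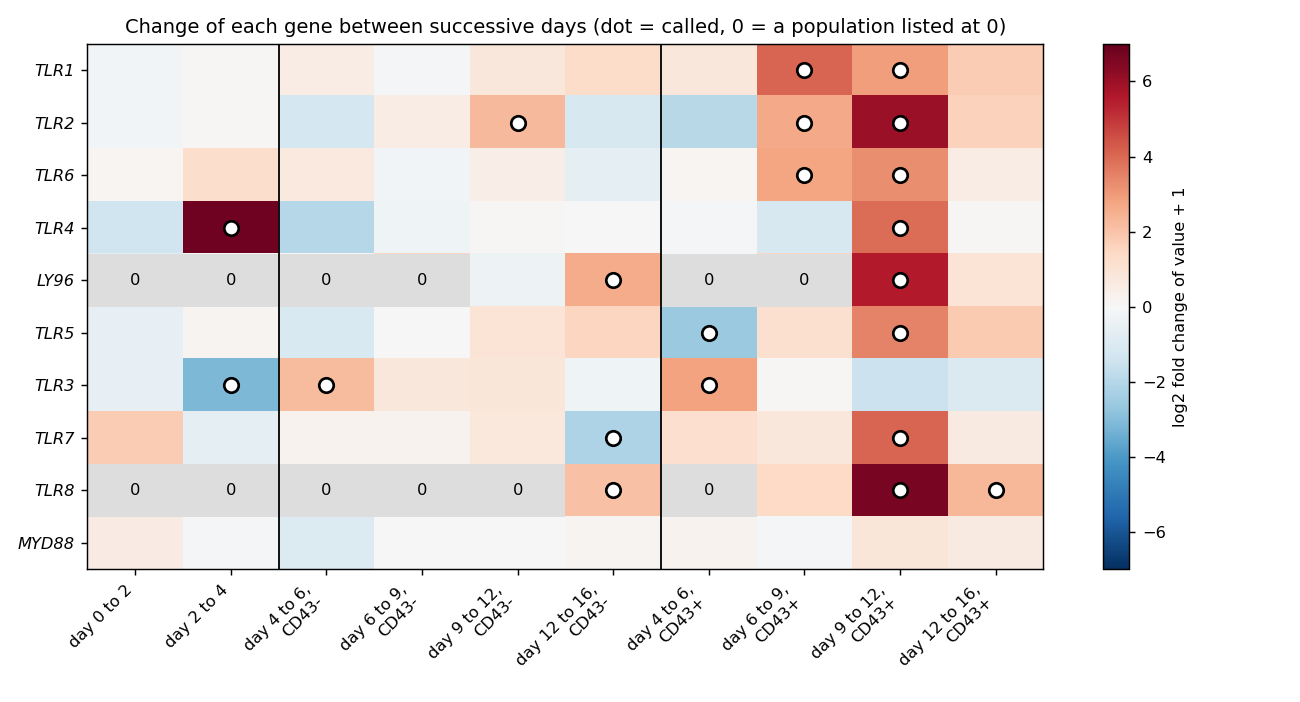
Log2 fold change of value + 1 (colour) of each gene (rows) between successive days (columns), first unsorted cells, then CD43- cells and then CD43+ cells. Dots mark called changes and a 0 on grey a population listed at 0; 8 dots stand in the step from day 9 to day 12 of CD43+ cells, and the deepest colour of the unsorted steps is the rise of TLR4 by 6.79.

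From day 12 to day 16, across which the sort also differed, 4 members of CD43+ cells other than TLR8 passed the adjusted p-value alone. TLR1 (1.78), TLR5 (1.85), TLR2 (1.63) and MYD88 (0.65) passed the adjusted p-value (the highest being 0.0252, for TLR2, limma) and not the fold. Without day 12 CD43+ replicate 1, TLR1 was at 2.28 and TLR5 at 2.02, both called. TLR4, TLR6, TLR7 and LY96 had log2 fold changes of 0.10 to 0.96, none of which passed the test. For 9 of 10 members the highest mean was in day 16 CD43+ cells and the second highest in day 12 CD43+ cells. The ranges of these neighbours in the order overlapped for TLR4, TLR6, TLR7 and LY96, and not for TLR1, TLR2, TLR5, TLR8 and MYD88.

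The steps of CD43- cells and of early unsorted cells had 0 to 3 members called each, given with the share of all genes in each step. From day 0 to day 2, 1 member was called, against 7.88% of all genes. This was TLR8, from 4, 4 and 2 to 0 in all 3 samples, and the call was lost without day 0 replicate 1 or 2 and with a pseudocount of 10. TLR7 (1.78, adjusted p = 0.0177, limma) and MYD88 (0.55, adjusted p = 0.0105) passed the adjusted p-value alone, and TLR7 was called at 2.15 without day 0 replicate 3. In CD43- cells, 0 of 10 members were called from day 6 to day 9 by limma, against 1.75% of all genes, and 1, LY96, had an unadjusted p below 0.05 (from 0 in all 3 samples to 3, 2 and 1).

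The day 12 CD43- samples differed from each other, and with them the receptor values. TLR2 had 10, 66 and 206 in replicates 1, 2 and 3, TLR4 had 22, 63 and 256, TLR6 had 6, 24 and 38, TLR7 had 4, 6 and 22 and LY96 had 0, 0 and 10. The summed monocyte and macrophage markers of these samples were 383, 5121 and 6369, the summed neutrophil markers 454, 1539 and 8131, and SPN and PTPRC together 126, 317 and 606. Each of these sums was lowest in replicate 1 and highest in replicate 3, as TLR2, TLR4, TLR6 and TLR7 were. Their part in the receptor values was not tested. TLR2 was called from day 9 to day 12 (2.29, standard error 0.58, adjusted p = 0.00306, limma), in a step in which 7.33% of all genes were called. It was not called without day 12 CD43- replicate 3 (1.31) or day 9 CD43- replicate 3 (1.97), nor when only these populations were fitted (adjusted p = 0.222).

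**Figure D3:**
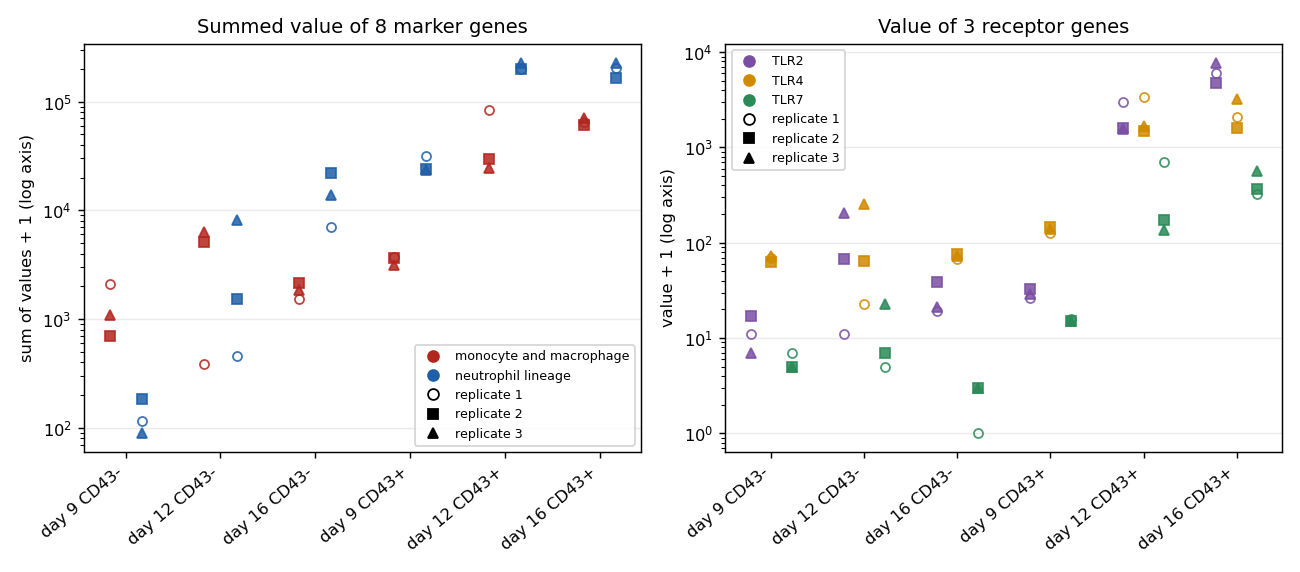
Left, summed value + 1 of 8 monocyte and macrophage markers and 8 neutrophil lineage markers; right, value + 1 of TLR2, TLR4 and TLR7, in each replicate of the CD43- and CD43+ cells of days 9, 12 and 16 (log axes, 3 samples per population). The day 12 CD43- replicates spread from 383 to 6369 for the monocyte and macrophage markers and from 10 to 206 for TLR2, while the day 16 CD43- replicates lie at 1535 to 2153 and 18 to 38.

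From day 12 to day 16 in CD43- cells, 3 members were called, against 10.4% of all genes, and these calls were unstable. TLR7 fell by 2.16 on the log2 scale (adjusted p = 0.00372, limma), LY96 rose by 2.62 (adjusted p = 0.00354) and TLR8 rose by 2.06 (adjusted p = 0.000759), all between values of 0 and 22. None was called when only these populations were fitted or with a pseudocount of 10. TLR7 was at -1.51 and not called without day 12 CD43- replicate 3 and at -1.63 without day 16 CD43- replicate 1. TLR8 was not called without day 12 CD43- replicate 1 or 2 (1.67 each) or day 16 CD43- replicate 2 (1.97) or 3 (1.89). In CD43- cells the neutrophil markers summed to 88 to 182 on day 9. On day 12 they summed to 454 to 8131, overlapping the 7096 to 21920 of day 16. Monocyte and macrophage sums also overlapped, at 383 to 6369 on day 12 and 1535 to 2153 on day 16. So did those of SPN and PTPRC, at 126 to 606 and 102 to 370. Megakaryocyte sums were 111 to 816 on day 12 and 3870 to 11735 on day 16. Eosinophil and mast cell sums were 0 to 525 and 921 to 4388, and erythroid sums 3 to 189 and 1491 to 3289. The part of these markers in the calls was not tested.

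The other genes of the pathway moved unevenly by role. Of 50 listed, 49 were tested, and IL12B was not analysed here. Called higher and lower in CD43+ cells were 5 and 1 on day 6, 12 and 3 on day 9, 15 and 2 on day 12 and 22 and 1 on day 16. The shares of all genes called higher were 4.68%, 8.65%, 11.8% and 12.2%. The median log2 fold change of the 49 genes was 0.33, 0.48, 0.83 and 1.37.

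Accessory proteins, which present ligands to the receptors or carry them through the cell, were called higher for 2, 4, 5 and 5 of 8 genes on the 4 days and lower for none. CD36, a scavenger receptor that works with TLR2 and TLR6, was called from day 6 on. It was at 301.3 against 3.7 on day 6 (log2 fold change 5.98, adjusted p = 6.5e-07, limma) and at 12031 against 23.0 on day 16 (8.96). LBP, which hands lipopolysaccharide to CD14, averaged 13.7 in day 6 CD43+ cells and was listed at 0 in day 6 CD43- cells. CD14, which presents lipopolysaccharide to TLR4 and MD-2, was called on day 12, with 1747 against 199.7 (3.79, adjusted p = 0.000705), and on day 16, with 1181 against 4.3 (7.81).

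The surface receptor CD180 and its partner LY86, relatives of TLR4 and MD-2, were called from day 9 on. On days 9, 12 and 16 CD180 was at 3.27, 6.28 and 6.25 and LY86 at 4.26, 6.10 and 6.58 (highest adjusted p of the 6 values 0.000378, limma). UNC93B1, the chaperone of the endosomal receptors, was chosen after its values were seen. It was called on day 12 (2.32) and day 16 (2.25, adjusted p = 1e-13). TLR10, which lies beside TLR1 and TLR6, was called on days 9, 12 and 16 at 5.08, 5.66 and 6.59, while TLR9, the endosomal DNA receptor, was not called on any of the 4 days.

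Of 4 other adaptors, TICAM2, which links TLR4 to TICAM1, was higher on day 12 (3.03, adjusted p = 0.00488, limma) and day 16 (2.28). SARM1, a relative of these adaptors that does not carry the MYD88 signal, was lower on days 9, 12 and 16, by -3.57, -3.88 and -2.41, with 56.3 against 284 on day 16 (adjusted p = 2.06e-08). Of 13 kinases and ligases, 0 were called on days 6, 9 and 12, where by limma 9, 10 and 8 passed the adjusted p-value alone, as 50.3%, 65.7% and 68.0% of all genes did at any fold. On day 16 2 were called, IRAK4, the kinase nearest to MYD88 (2.50, adjusted p = 7.81e-13), and CHUK, a subunit of the IκB kinase (2.03).

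Of 7 transcription factors, IRF5, which acts below MYD88 in macrophages, was called from day 9 on, with 195.7 against 1.0 (6.61, adjusted p = 7.91e-10, limma), 1238 against 43.3 on day 12 (5.31) and 1991 against 27.3 on day 16 (6.28). NFKB1 (2.28) and IRF7 (2.07) were added on day 16. Among 6 negative regulators, IRAK3, an inhibitor of IRAK signalling, was called on all 4 days, at 2.08, 3.17, 4.64 and 4.77. TNFAIP3, which switches off NF-κB, was lower on day 9 (-2.79, adjusted p = 2.71e-08), and on day 16 NFKBIA, the IκB protein that holds NF-κB in the cytoplasm, was higher (2.09).

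Output genes, which are induced by the pathway and by other stimuli, were called higher for 2, 5, 6 and 8 of 9 genes on days 6, 9, 12 and 16. IL1B was at 76.0 against 2.7 on day 6 (4.36, adjusted p = 0.000265, limma) and at 2197 against 19.3 on day 16 (6.92). The chemokine gene CCL3 was called on all 4 days, at 3.57, 6.08, 5.25 and 7.57, and CCL4 averaged 129.7 in day 9 CD43+ cells and was listed at 0 in CD43- cells. CXCL8 was at 4528 against 20.0 on day 16 (7.44, adjusted p = 6.93e-09). In the other direction, TNF was lower on day 6, with 1.0 against 6.7 (-2.0, adjusted p = 0.0133), and higher on days 12 (3.46) and 16 (5.16). IL6 was lower in CD43+ cells on days 9 (-2.65) and 12 (-4.88, adjusted p = 9.82e-07), with 1.0 against 64.0 on day 12, and on day 16 its difference was -1.49 (adjusted p = 0.0663).

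**Figure D4:**
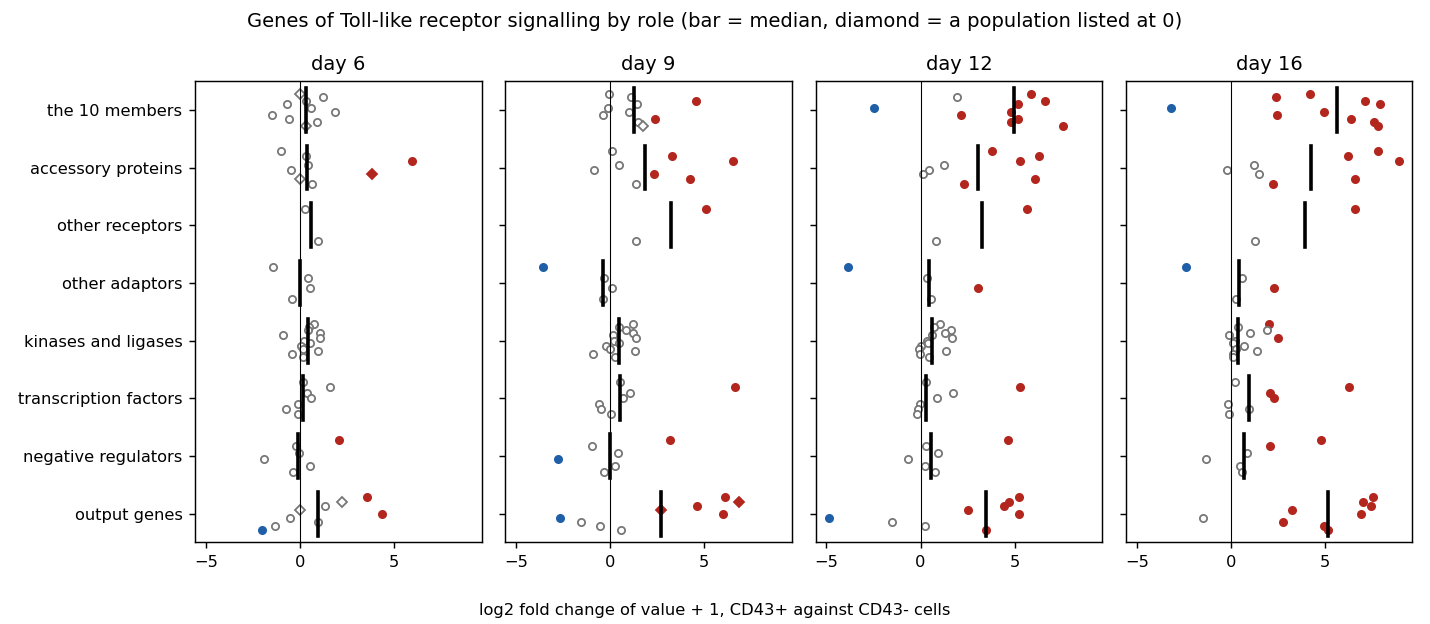
Log2 fold change of value + 1 between CD43+ and CD43- cells (x axis) for the 10 members and the 49 other pathway genes by role (rows), on days 6, 9, 12 and 16. Red and blue points were called higher or lower, open points were not called, diamonds rest on a population listed at 0 and bars are medians; the bar of the members is at 4.98 on day 12 and 5.64 on day 16, and that of the 13 kinases and ligases at 0.60 and 0.39.

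Across the means of log2(value + 1) in the 12 populations, which share samples and a common normalization, the members were compared with each other and with all tested genes as a description. TLR1 and TLR6 had a Pearson's r of 0.969, LY96 and TLR8 0.962, and TLR8 and TLR2 0.960. TLR3 was negatively related to every other member, most to TLR4 (-0.754). The genes most like TLR1 were EVI2B (r = 0.993), HPCAL1 and C19orf38, those most like TLR2 were LILRA6 (0.988), ADAP2 and TIMD4, and GPR35 (0.987) and EVI2B were among those most like TLR6. MS4A4A (0.964), RASA3 and LINC00926 were most like TLR4, and DPYD (0.990), ELANE and S100A12 most like LY96. For TLR5 they were C9orf72 (0.973), STAT4 and HLA-C. For TLR7 they were GPR34 (0.965), SLC37A2 and ATG7, and for TLR8 FCGR3B (0.989), MCEMP1 and AC079630.4. KDSR (0.941), TRIM39 and AEBP2 were most like TLR3, and CAP1 (0.957), IKBKG and XAGE1B most like MYD88. IKBKG encodes the regulatory subunit of the IκB kinase. With 12 points many genes lie at almost the same r, and of the 3 genes nearest to each member at most 2 were also among its 3 nearest over the 33 replicated samples or by Spearman's rho. Over the 10 members and these 2 measures, fewer than 2 of the 3 were kept in 16 cases. The neighbours named therefore depend on the measure.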

How the data were processed

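RNA of 34 samples in 12 populations was sequenced and deposited as a single table. Per the labels and the study's methods, the authors aligned reads with Bowtie2 and quantified them with RSEM against Ensembl genes on GRCh38. The submitters' processing notes also name bcl2fastq and STAR 2.7. The authors then normalized the tag counts for GC content with EDASeq and deposited them as rounded values, here treated as a score and not as counts, because every sample holds the same sorted values. The GC content of each gene is also deposited, as a percent, and entered no test. Such scaling removes differences in total and in distribution between samples, and sequencing depth is unknown. Samples were sequenced at 2 companies that the labels do not tell apart, and the part of the company in the differences was not tested. Whether counting used strand is not given in the sources used here.

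Groups came from the sample labels, and the undifferentiated sample entered no test. The test was that of limma 3.58.1 (R 4.3.3, trended variances) on log2(value + 1), in 1 fit of the 33 replicated samples and the 19788 of 20255 genes with at least 10 in at least 3 samples. A call needed both more than a 4-fold difference and p below 0.05 after Benjamini-Hochberg adjustment. Fold changes on this scale understate those of low genes. No identical sample pairs were found. The p-values rest on the spread between samples within a population, pooled for each gene over all 33 replicated samples and moderated across genes. They do not measure the spread of the compared populations alone. Replicate numbers are shared by populations. Same-numbered CD43+ and CD43- samples deviated together on day 6 (correlations of 0.109 to 0.199), and not on every pair of days 9, 12 and 16 (-0.015 to 0.108), so they were taken to pair the samples on day 6 alone.

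The text names all members, the called pathway genes with the 2 largest rises and falls of each role on each day, and the 3 genes most correlated with each member. For TLR6, 1 of these is not reported here. IRF7, UNC93B1, CD180 and LY86 values beyond this rule were added after they were seen. Members and lists were chosen with earlier results of these data known. Promoters came from RefSeq (GRCh38.p14). TLR1 and TLR7 had no entry, and that of LY96 was not read. Alternatives were another pseudocount, filter, fold threshold, scaling, variance model or sample set, replicate blocks, and leaving out each replicate. Python 3.11.15 with pandas 2.3.3 and scipy 1.17.1 was used, and the fit was tested on simulated data.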

Additional observations from a re-analysis of the deposited data

Results flagged for a closer look

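For 12 results the difference between CD43+ and CD43- cells itself changed from one day to the next, by the interaction term of the limma fit, past an adjusted p-value of 0.05 and 4-fold. Values are changes of the log2 fold change. TLR1 and TLR7 would not have entered the test without CD43+ samples, so their p-values below are not independent of the filter.

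From day 6 to day 9, 2 members were called, against 7.39% of all genes: TLR1 by 4.24 (standard error 0.73, adjusted p = 0.000167) and TLR6 by 2.94 (adjusted p = 0.00189). All 3 CD43+ samples of day 9 were above all 3 of day 6 for both genes, while the CD43- samples overlapped between these days.

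From day 9 to day 12, 8 members were called, against 9% of all genes. The difference of LY96 widened by 5.92 (adjusted p = 5.85e-05, limma), that of TLR4 by 3.80 (adjusted p = 0.00175) and that of TLR2 by 3.78 (adjusted p = 0.000992). It widened by 3.33 for TLR7, 2.79 for TLR6 and 2.50 for TLR5, the highest adjusted p-value of these being 0.00547. For TLR8 the term was 5.84 (adjusted p = 2.16e-07), but day 9 CD43- cells were listed at 0, so its size depends on the pseudocount. TLR8 entered the test only through CD43+ samples, those of day 12 among them, so its p-value is not independent of the filter. TLR7 was not called with a pseudocount of 0.1 (adjusted p = 0.0789). For TLR1 the term was 2.10 (adjusted p = 0.0337). It was not called without day 9 CD43- replicate 2 (1.66), day 9 CD43+ replicate 1 (1.97) or 3 (2.12, adjusted p = 0.053), or replicate 1 of the day 12 CD43- (1.47) or CD43+ cells (1.6), with a pseudocount of 0.1 (1.86, adjusted p = 0.281) or when only these populations were fitted (adjusted p = 0.132).

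From day 12 to day 16, between which the sort also differed, TLR7 (2.81, adjusted p = 0.019, limma) and TLR2 (2.73, adjusted p = 0.0221) were called, against 5.03% of all genes. Without day 12 CD43- replicate 3, which had the highest TLR2 and TLR7 of its group, they were at 2.16 (adjusted p = 0.0675) and 1.75 (adjusted p = 0.0774). Both were also lost without day 12 CD43+ replicate 3 (2.36 and 2.57) or day 16 CD43- replicate 1 (2.29 and 2.53), and TLR7 without day 12 CD43+ replicate 2 (2.54). Neither was called when only these populations were fitted.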

How the results depend on the processing

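Of 340 recomputed counts of called genes, 296 stayed within 1.5 times the reported count and 44 did not. The counts between CD43+ and CD43- cells were 9 and 10 members on days 12 and 16, and over all alternatives they ranged from 7 to 10 and from 9 to 10. Depth is unknown, so what it limits cannot be given, and values under about 10 moved most with the pseudocount. Median-of-ratios scaling, which moved the median of all genes by at most 0.206 on the log2 scale, changed no call of a member, and neither did dropping the filter or using robust variances. With a replicate block across all days, the count on day 12 was 9 and on day 16 10, and no call changed. On day 6, where the numbers were taken to pair the samples, a replicate block changed no call of a member between CD43+ and CD43- cells. Against day 4 this block sets the level of day 6 replicate 1 against day 4. The TLR2 value given above (-2.19) therefore does not measure pairing.

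With a pseudocount of 10, the called members numbered 1 between CD43+ and CD43- cells on day 9, 0 from day 0 to day 2, 1 from day 2 to day 4, 0 from day 4 to either day 6 population, 0 in both later steps of CD43- cells from day 9 on, and 1 for the changed difference from day 12 to day 16. The pathway genes called on day 6 were then 2, against 6. With a pseudocount of 0.1 the members numbered 3 from day 0 to day 2 and 0 in the last step of CD43+ cells. At 2-fold, CD43+ and CD43- cells differed in 3 members on day 6 and in 6 on day 9. The steps had 2 from day 0 to day 2, 2 from day 4 to day 6 CD43- cells and, up to day 16, 4 in CD43+ and 5 in CD43- cells. Of the pathway genes, 12 were called on day 6. A filter of 100 left 1 from day 2 to day 4, 1 from day 4 to day 6 CD43+ and 0 to day 6 CD43- cells. Fitting only the populations compared left 0 in the CD43- steps that end on days 12 and 16, and 0 for the changed difference between these days. The filter of 100 took TLR3 out of the test and the smaller fits hold fewer samples, and the cause of the other changes was not tested.

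Leaving out each replicate in turn, the members called between CD43+ and CD43- cells numbered 0 to 1 on day 6, 2 on day 9, 8 to 9 on day 12 and 10 on day 16, and the pathway genes 4 to 7, 14 to 15, 17 and 21 to 23. They numbered 0 to 2 from day 0 to day 2, 2 from day 2 to day 4, and 1 to 3 and 0 to 2 from day 4 to day 6 CD43+ and CD43- cells. In CD43+ cells they numbered 3 to 4 to day 9, 8 to 9 to day 12 and 1 to 3 to day 16, and in CD43- cells 0, 0 to 1 and 2 to 3. The changed differences numbered 2, 7 to 9 and 0 to 2. Differences near 0 on day 9 turned direction, and the cause was not tested. TLR3 (-0.12, and -0.32 to 0.19 over the samples left out) was at 0.19 without day 9 CD43+ replicate 1. LY96 (-0.06, and -0.74 to 0.67 over the samples left out) was at 0.05 with a pseudocount of 10, at 0.17 without day 9 CD43- replicate 1 and at 0.67 without day 9 CD43+ replicate 3.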
